A study of Mus musculus with 2 samples.

Results

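Among the γδ T cells recovered from the mouse thymus, 1298 of 4351 kept cells (29.8%, exact binomial 95% interval 28.5 to 31.2%) carried Cd24a together with transcripts of Dntt, Cpa3, Tox2 or Etv5 and few transcripts of cell cycle genes. These cells, called members here, were set against the other 3053 kept thymus cells. In the series as a whole 12426 cells were kept. Members were chosen by their own unique molecular identifiers (UMIs, each standing for 1 captured transcript). A member had at least 1 UMI of Cd24a, at least 2 UMIs in the sum of Dntt, Cpa3, Tox2 and Etv5 (the 4-gene sum), and at most 4 UMIs in the sum of 10 cell cycle genes (Mki67, Top2a, Birc5, Ccna2, Ube2c, Nusap1, Tpx2, Tk1, Rrm2 and 2810417H13Rik). Kept cells had 800 to 4000 detected genes and at most 6% mitochondrial UMIs. Because the UMIs of the same cells chose the members, every difference from the other thymus cells is a description and carries no test.

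The study set γδ T cells of the thymus beside those of the liver. Both came from untreated wild type C57BL/6J mice at 8 weeks of age, with 1 droplet-based 3′ library per tissue. Thymic suspensions were depleted of CD4- and CD8-bearing cells on magnetic beads, and cells with surface CD3e and γδ TCR were then sorted. The sort removed thymocytes without a surface γδ TCR, and the number of animals behind each library taken separately is not given in the sources used here. With 1 library per tissue there is no replicate. Intervals on levels are exact Poisson 95% intervals, those on ratios exact conditional binomial ones, and all cover counting error only.

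γδ T cells form in the thymus from CD4- CD8- precursors that rearrange the γ and δ receptor genes. Newly made γδ thymocytes carry CD24 (heat-stable antigen, the product of Cd24a) on their surface and lose it as they mature. Dntt encodes terminal deoxynucleotidyl transferase, which adds untemplated nucleotides to V(D)J junctions. Cpa3 encodes carboxypeptidase A3, a protease best known from mast cells and also transcribed in early progenitors. Tox2 is an HMG-box transcription factor and Etv5 an ETS-family transcription factor.

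In the GRCm38 build (GENCODE vM21 annotation) Cd24a lies at chr10:43578284-43584265 on the plus strand, Dntt at chr19:41029275-41059525 on the plus strand, Cpa3 at chr3:20215620-20242181 on the minus strand, Tox2 at chr2:163203125-163324170 on the plus strand and Etv5 at chr16:22381309-22439719 on the minus strand. The 4 summed genes were therefore on 4 different chromosomes.

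Members had a median of 4026.5 UMIs and 1539 genes per cell, against 3020 UMIs and 1252 genes in the other kept thymus cells. A rule that asks for a minimum of UMIs takes in deeper cells more readily, so levels were scaled to UMIs per 1000000 (CPM), summed over the cells of a group. Ribosomal-protein genes took 34.2% of the UMIs of members and 32.8% of those of the other cells, and mitochondrial genes took 2.34% and 2.41%. Cell barcodes are reused between libraries, and 60 barcode sequences occurred in both, 18 of them among the members (1.39%). The other cells fell into 3 groups. The 1246 Cd24a-positive, low-sum cells had Cd24a and a 4-gene sum under 2. A further 1596 Cd24a-negative cells had no Cd24a UMI, and 211 cycling cells had over 4 cell cycle UMIs. Median depth was 2884 UMIs in the Cd24a-positive, low-sum cells, 2957.5 in the Cd24a-negative cells and 8984 in the cycling cells.

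The genes of the rule gave the members their levels by construction. Dntt stood at 184 CPM in members, 28.5 in Cd24a-positive, low-sum cells, 54.2 in Cd24a-negative cells and 147 in cycling cells. Cpa3 stood at 366 CPM in members, against 35.0, 125 and 73.7 in the same 3 groups. Tox2 stood at 168 CPM, against 21.8, 67.9 and 86.3. Etv5 stood at 282 CPM, against 37.7, 106 and 108. Cd24a was at 741 CPM in members and at 831 in Cd24a-positive, low-sum cells, so among cells with Cd24a the members did not have the higher level.

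No single gene of the sum was present in all members. At full depth Etv5 was seen in 870 members (67.0%), Cpa3 in 827 (63.7%), Dntt in 612 (47.2%) and Tox2 in 599 (46.2%). UMIs of 1 of the 4 genes were found in 243 members, of 2 in 597, of 3 in 361 and of all 4 in 97. Cpa3 with Etv5 alone was the most frequent combination, in 178 members (13.7%, 11.9 to 15.7%). Members with 2 or more UMIs of Dntt alone (25 cells) or of Tox2 alone (23 cells) were the rarest. The 4-gene sum was 2 in 331 members, 3 in 266, 4 in 208 and 5 or more in 493.

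**Figure D1:**
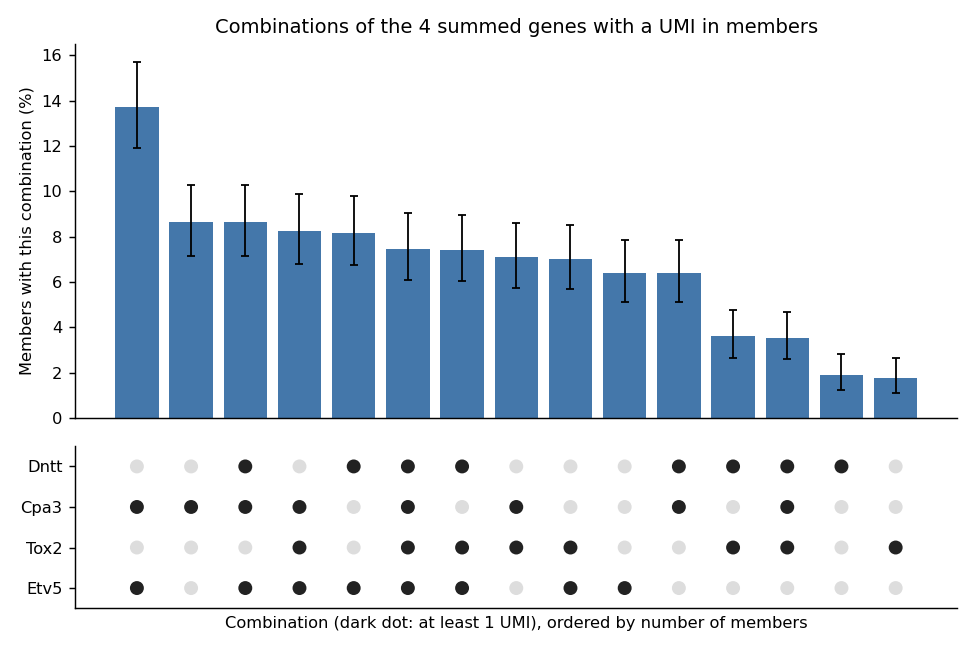
Bars give the percentage of the 1298 members in which exactly the marked genes of the 4-gene sum had at least 1 UMI, with exact binomial 95% intervals that cover counting error only. Dark dots below mark the genes present. Cpa3 with Etv5 is the tallest bar at 13.7%, and the bars for Dntt alone (1.93%) and Tox2 alone (1.77%) are the lowest.

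Depth was evened out by drawing 1500 UMIs at random from each cell, which left out 1 member and 7 thymus cells in all. Dntt then had a UMI in 21.9% of members and 0.124% of liver cells, Cpa3 in 42.0% and 0.186%, Tox2 in 21.0% and 0.0372%, and Etv5 in 35.2% and 0.731%. Without the draw the liver shares were 0.223%, 0.347%, 0.0991% and 1.44%. Median depth before the draw was 2741 UMIs in liver cells. The liver is another library and does not measure the free RNA of these 4 genes in the thymus suspension, whose part in the thymus shares was not tested. The shares in thymus cells outside the members were 6.96% for Dntt, 9.45% for Cpa3, 6.04% for Tox2 and 9.58% for Etv5.

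Igfbp4 was the marker proposed for these cells that the rule did not use. It encodes a binding protein for insulin-like growth factors and lies at chr11:99041244-99054392 on the plus strand. Its level was 525 CPM (506 to 544) in members, 237 in Cd24a-positive, low-sum cells, 326 in Cd24a-negative cells, 270 in cycling cells and 11.3 in liver cells. After the draw to 1500 UMIs, 46.2% of members had an Igfbp4 UMI against 26.6% of the other thymus cells and 1.07% of liver cells, and before it 73.2%, 42.2% and 1.93%.

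Cd24a and the 4 summed genes belong to the rule, so their levels do not test whether members are immature. CD3 transcripts were shared with the other thymus cells, and several early progenitor genes had few UMIs. Cd3e stood at 616 CPM in members and Cd3g at 1176, close to the 625 and 1169 CPM of the other thymus cells. Recombinase transcripts were not detected in members. Rag1 and Rag2 each had 0 UMIs in 5785768, and 3 UMIs would have been 0.519 CPM. Ptcra, the pre-TCR α chain of the αβ lineage, had 11 UMIs (1.90 CPM), Il2ra had 12 (2.07 CPM), Kit had 47 (8.12 CPM), Cd34 had 0 and Flt3 had 1. The other thymus cells had 1 UMI each of Rag1, Rag2 and Flt3 and 0 of Cd34, so these absences were not particular to members. Ptcra was at 1.42 CPM in the other cells. Il2ra (5.41 CPM) and Kit (14.4 CPM) were higher there than in members. Cd4 had 4 UMIs in members (0.691 CPM, and 0.355 in the other cells) and Cd8a 2 (0.346 and 6.3 CPM), in a suspension depleted of CD4- and CD8-bearing cells. Lig4, the ligase that closes V(D)J junctions, was at 30.2 CPM in members and 18.2 in the other cells (ratio 1.66, 1.35 to 2.05). It was 1 of 9 tested V(D)J recombination genes, of which 5 lay above 0 and 4 below, with a median log2 ratio of 0.03. Xrcc5, on the lower side, was at 11.4 and 13.5 CPM.

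Markers of other cells were sparse. Of 8 mast cell and basophil genes other than Cpa3, 6 had 0 UMIs in members, and 3 members had a UMI of the other 2 (Hdc and Gata2). The 3 UMIs in all were 0.519 CPM, and the other thymus cells had 0.975 CPM. The erythroid list summed to 42.2 CPM in members and 119 in the other cells, with 23.2 and 58.7 CPM of Hbb-bs. The sums of the lists for B cells (31.1 and 28.8 CPM), macrophages and monocytes (33.5 and 35.7), plasmacytoid dendritic cells (180 and 194), double-positive thymocytes (39.9 and 39.4) and thymic epithelium (23.7 and 18.7) differed little. In the double-positive list Aqp11 gave 195 of the 231 UMIs in members and was higher there (33.7 and 19.8 CPM). Cd8a (0.346 and 6.3 CPM) and Cd8b1 (3.28 and 11.35) of that list were lower in members. Within them Siglech, Pax5, Krt5, Krt8 and Psmb11 had 0 UMIs in members, and Bst2, which many cells transcribe, gave 601 of the 1042 UMIs of the plasmacytoid list. At least 5 UMIs of the B cell or the macrophage list were carried by 4 members and 4 other cells. The most in 1 member was 91 UMIs of the macrophage list. What part such barcodes have in the results was not tested.

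Outside the rule, the members were close to the other thymus cells at most genes, and nearly all genes past 2-fold were lower in members. Genes were compared where members and other cells together held 50 UMIs or more. Of 9491 such genes, 2 were at least 2-fold higher in members (0.0211%) and 58 at least 2-fold lower (0.611%), with 10 CPM added to both levels. The median log2 ratio over all 9491 was -0.02. The 15 genes of the rule are left out of these counts. Lars2 and Gzma were the 2 higher genes. Lars2 rested on 1 barcode: 331 of its 368 UMIs in members lay in a single cell of 3990 UMIs, and without that cell it was at 6.40 CPM in members (4.51 to 8.82) against 9.31 in the other cells.

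Gzma encodes granzyme A, a serine protease of cytotoxic granules, at chr13:113093825-113100981 on the minus strand. Its level was 4787 CPM in members (4731 to 4844) and 1791 in the other thymus cells (ratio 2.67, 2.62 to 2.72). It was at 1737 CPM in Cd24a-negative and 1839 in Cd24a-positive, low-sum cells, and cycling cells had 1828. Liver γδ T cells stood at 2314 CPM. After the draw to 1500 UMIs, 83.3% of members and 50.3% of the other cells had a Gzma UMI, and before it 91.3% and 63.2%.

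Granzyme A was unevenly spread among the members. After the draw the median member had 5 Gzma UMIs, the 10th percentile was 0 and the 90th was 18, with up to 55 in 1 cell. The variance over the mean was 8.12, against a median of 1.02 over 4307 genes of all levels. Genes with a mean nearer the 7.13 UMIs of Gzma had 10.3 (Actb), 4.17 (Crip1) and 2.59 (Tmsb4x). In 216 members (16.7%, 14.7 to 18.8%) no Gzma UMI was drawn.

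The named set on the higher side held 10 further genes, with ratios from 1.85 to 2.15. Sox13, an SRY-box transcription factor of γδ T cells, was at 253 CPM in members and 123 in the other cells (ratio 2.05, 1.90 to 2.21). Blk, a B lymphoid Src-family kinase also used by γδ T cells, was at 292 and 153 CPM (1.91, 1.78 to 2.04). Hes1, a target of Notch signalling, was at 703 and 373 CPM (1.88, 1.80 to 1.97). Rapgef3, an exchange factor for Rap proteins that responds to cyclic AMP, was at 126 and 58.5 CPM. Exoc4, a subunit of the exocyst complex, was at 213 and 103 CPM. Myo6, an unconventional myosin, was at 139 and 68.5 CPM. Endou, an endoribonuclease, was at 250.3 and 123 CPM, Tmem121 at 179 and 93.8 CPM, and Clec12a, an inhibitory C-type lectin receptor, at 61.0 and 30.1 CPM. With Igfbp4 these genes lay just under the 2-fold limit on the log2 scale with 10 CPM added, from 0.82 for Clec12a to 0.99 for Rapgef3.

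The named genes on the lower side included chemokines, receptors and surface proteins of lymphocytes. Ccl5, a chemokine of effector lymphocytes, was at 27.1 CPM in members (23.1 to 31.7) and 375 in the other cells (ratio 0.0725, 0.0614 to 0.0850). Xcl1, a second lymphocyte chemokine, was at 3.63 and 68.9 CPM. Cxcr6, a receptor that holds lymphocytes in tissues, was at 8.64 and 54.8 CPM. Il7r, the α chain of the IL-7 receptor, was at 29.4 and 97.5 CPM (0.301, 0.255 to 0.354). S100a6, a calcium-binding protein of activated cells, was at 79.9 and 308 CPM, and Ly6a (Sca-1) at 15.9 and 71.8 CPM. Rgs1 was at 64.1 and 219 CPM, Cd7 at 67.6 and 220, Ms4a4b at 79.5 and 230, Fcer1g at 15.2 and 66.3, and Ifi27l2a, an interferon-induced gene, at 43.0 and 151. Tuba1b, an α-tubulin gene, was at 131 CPM in members and 430 in the other cells, but at 1784 in the cycling cells and 121 in the Cd24a-negative cells.

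**Figure D2:**
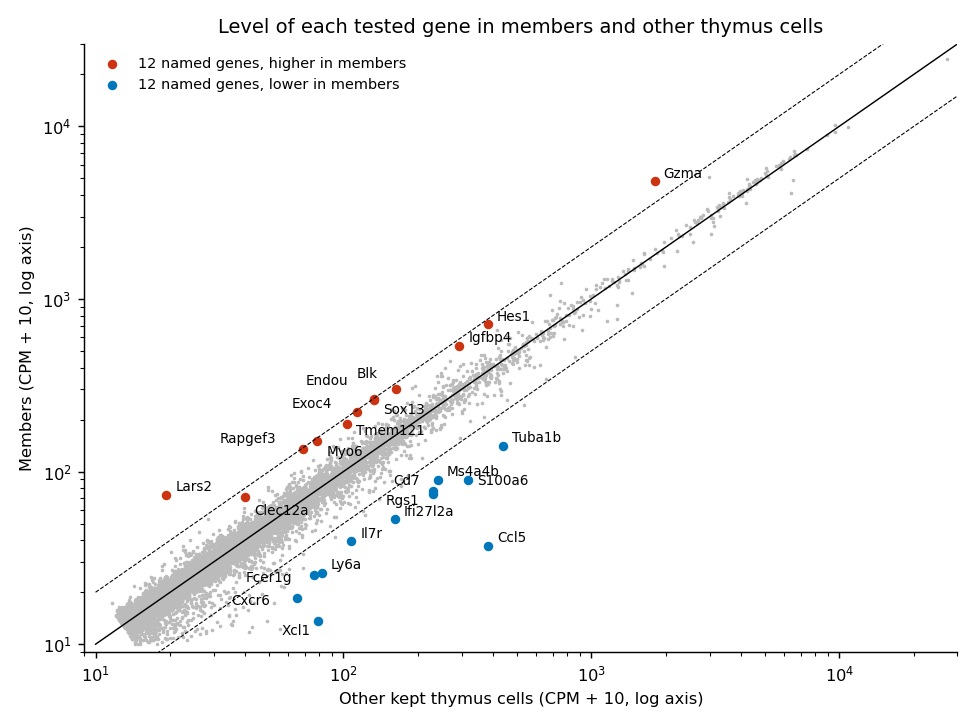
Each grey point is 1 of 9491 genes, with its level in the other kept thymus cells on the horizontal axis and in members on the vertical axis, both as CPM with 10 added on log axes. The solid line marks equal levels and the dashed lines 2-fold differences. Gzma lies above the upper dashed line, Lars2 lies there through 1 barcode, and 58 genes led by Ccl5 and Xcl1 lie below the lower one.

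The comparison group mattered for which genes passed 2-fold. Against Cd24a-positive, low-sum cells, 7 of 8437 genes were higher (0.083%) and 27 lower (0.32%). Against Cd24a-negative cells, 10 of 8633 genes were higher (0.116%) and 92 lower (1.07%). Against cycling cells, 204 of 7944 genes were higher (2.57%) and 403 lower (5.07%). Igfbp4 was among the genes higher than in Cd24a-positive, low-sum cells (log2 ratio 1.11), and Hes1 stood at 511 CPM there and 288 in Cd24a-negative cells. Gzma passed 2-fold against each of the 3 groups, on the same scale.

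**Figure D3:**
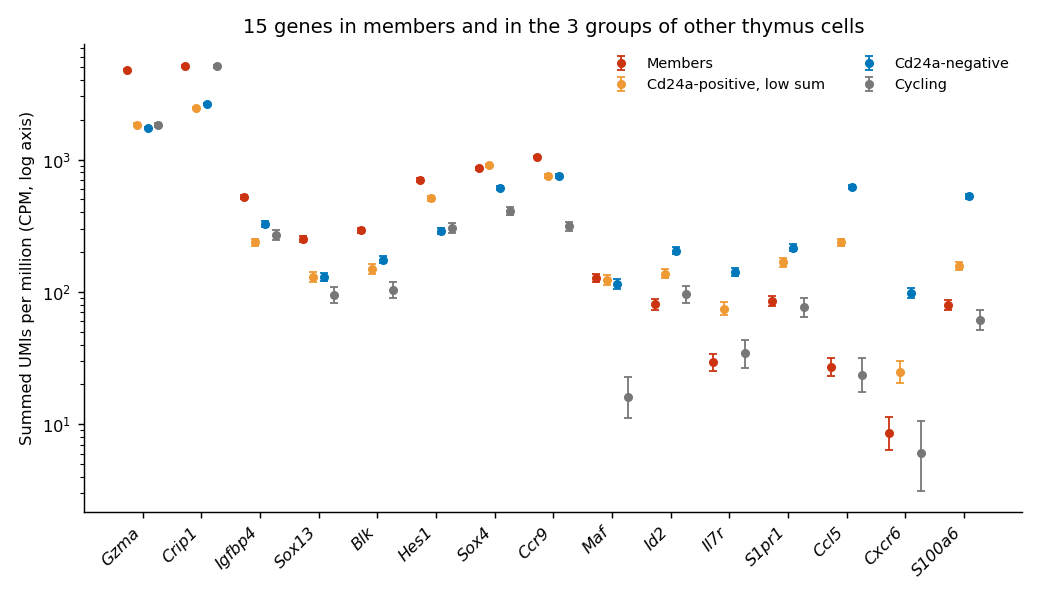
Points give the level of 15 genes, as CPM on a log axis, in members and in the 3 groups that make up the other thymus cells, with exact Poisson 95% intervals that cover counting error only. Members have the highest level of Gzma, Igfbp4, Sox13, Blk, Hes1 and Ccr9. Ccl5, Cxcr6 and S100a6 are highest in the Cd24a-negative cells, and Crip1 is at 5094 CPM in members and 5056 in cycling cells.

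Notch pathway genes showed no common direction. Of 9 tested genes of the Notch list, 0 passed 2-fold either way, 5 lay above 0 and 4 below, and the median log2 ratio was 0.04. Over all 9491 genes 0.0211% were at least 2-fold higher and 0.611% lower, and these shares stand beside every list that follows. With shares this small, 0 genes past 2-fold says little about a short list. Hes1 was the exception just under the limit. Hey1, another Notch target, was at 32.3 CPM in members and 25.1 in the other cells (ratio 1.29, 1.07 to 1.55). Notch1, the receptor, was at 23.9 and 22.9 CPM (1.04, 0.842 to 1.29). Dtx1, a further target, was at 2.42 and 10.6 CPM, and Nrarp at 0.864 and 2.39 CPM. Hes1 also varied between members, with 0 UMIs in 694 (53.5%) after the draw, 4 at the 90th percentile and up to 18 in 1 cell.

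Transcription factors of the T lineage were spread on both sides of 0. None of 16 passed 2-fold, with a median log2 ratio of 0.10. Gata3 was at 346 CPM in members and 238 in the other cells (ratio 1.45, 1.37 to 1.54), Tcf7 at 583 and 459 (1.27, 1.22 to 1.33) and Tcf12, an E protein, at 203 and 155 (1.31, 1.22 to 1.41). Id2, an inhibitor of E proteins that marks effector lymphocytes, was at 80.4 CPM in members, 137 in Cd24a-positive, low-sum cells, 204 in Cd24a-negative cells and 1026 in liver cells. Its relative Id3 was at 136 CPM in members and 126 in the other cells, and the interval of that ratio (0.996 to 1.19) included 1. Ikzf2 (Helios) was at 619 and 657 CPM and Tox at 325 and 304.

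Regulators of γδ effector fate split by gene. Of 10 tested, 0 were at least 2-fold higher and 1 lower (Bhlhe40, 6.39 and 29.4 CPM), with a median log2 ratio of 0.19. Sox13 and Blk were nearly 2-fold higher, as given above. Sox4, another SOX factor, was at 858 CPM in members and 685 in the other cells (ratio 1.25, 1.21 to 1.299), but at 902 in Cd24a-positive, low-sum cells. Maf was at 128 and 100 CPM (1.27, 1.16 to 1.40), but at 122.5 in Cd24a-positive, low-sum cells, 115 in Cd24a-negative cells and 16.2 in cycling cells, and with no cell cycle limit in the rule its log2 ratio was -0.06 in place of 0.32. Sox5 was at 30.6 and 22.3 (1.37, 1.13 to 1.67). Zbtb16, encoding PLZF of innate-like lymphocytes, was at 6.91 and 16.9 CPM. Tbx21, encoding T-bet, had 1 UMI in members (0.173 CPM, and 1.86 in the other cells) and Eomes had 2 (0.346 and 8.6 CPM). Egr3 had 1 UMI in members and 3 in the other cells (0.173 and 0.266 CPM), so it was scarce in both.

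Most tested genes of the type-1 effector list lay lower in members, but Gzma did not. Because of Gzma, the list summed to 5139 CPM in members against 2906 in the other cells. The type-1 list had 13 tested genes, of which 1 was at least 2-fold higher (Gzma) and 7 lower, with a median log2 ratio of -1.31. The shares over all genes were 0.0211% higher and 0.611% lower. Besides Ccl5 and Xcl1 the lower genes included Gzmb (1.73 and 31.5 CPM), Klrd1 (3.63 and 39.1), Klrk1 (2.59 and 32.7) and Il2rb (17.6 and 58.6). Granzyme A thus stood apart from granzyme B, which had 10 UMIs in all members. Ifng was at 7.09 and 12.9 CPM. In the type-2 and innate-like list, 0 of 8 were higher and 2 lower (Icos at 15.6 and 46.4 CPM, and Fcer1g), with a median of -0.47.

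Genes of maturation and exit from the thymus lay mostly below 0. Of 18 tested, 0 were at least 2-fold higher, 4 were lower (Ly6c2, Ly6a, Il7r and Ms4a4b) and the median log2 ratio was -0.66, with 15 below 0. The shares over all genes were 0.0211% higher and 0.611% lower. S1pr1, the receptor that guides cells out of the thymus, was at 85.7 CPM in members and 173 in the other cells (ratio 0.496, 0.449 to 0.548). Klf2, which induces S1pr1, was at 404 and 609 CPM, Itgb7 at 77.8 and 147, and Ccr7 at 44.8 and 81.7. Cd27, a co-stimulatory receptor, was on the other side, at 592 and 448 CPM (1.32, 1.26 to 1.38). Nt5e, encoding CD73, had 15 UMIs in members (2.59 CPM) and 12.6 CPM in the other cells.

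Chemokine and cytokine receptors lay mostly below 0, with 12 of 15 tested below and 3 above. Of these 15, 0 were higher and 4 lower (Cxcr6, Il7r, Il2rb and Il18r1), with a median of -0.42. The shares over all genes were 0.0211% higher and 0.611% lower. On the higher side, Ccr9, the receptor for the thymic chemokine CCL25, was at 1045 CPM in members and 674 in the other cells (ratio 1.55, 1.499 to 1.61). Ccr4 was at 29.6 and 19.3 CPM (1.53, 1.24 to 1.88).

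The TCR complex differed little. Of 14 tested genes of the TCR complex and proximal signalling, 0 passed 2-fold and the median was 0.03. Cd247, the ζ chain, was the furthest, at 648 CPM in members and 408 in the other cells (ratio 1.59, 1.52 to 1.66). Of 11 tested TCR-induced genes, 0 passed and the median was 0.11. Nr4a1 (Nur77) was at 418 and 318 CPM (1.31, 1.25 to 1.38) and Egr1 at 141 and 113 (1.25, 1.14 to 1.36). Junb was at 1077 and 1449 CPM, and Nr4a2 at 43.9 and 63.1. Against Cd24a-positive, low-sum cells alone, the median of the 11 tested TCR-induced genes was 0.02, with 6 above 0 and 5 below. Nr4a1 was at 296 CPM in Cd24a-negative cells and 226 in cycling cells.

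The medians of the remaining lists lay between -0.57 and 0.03, against -0.02 over all 9491 genes. Over all genes 0.611% were at least 2-fold lower. In lists this short 1 lower gene is enough to exceed that share, so the counts below do not set a list apart. Of 7 MHC class I genes, 0 were higher and 1 lower (H2-Q7 at 46.1 and 112 CPM), all 7 lay below 0 and the median was -0.35, with B2m at 2381 and 3036 CPM. Of 8 Gimap genes, 0 were higher and 1 lower (Gimap3 at 7.43 and 42.6 CPM), with a median of -0.05. Of 10 survival genes, 0 were higher and 1 lower (Bcl2a1b at 3.46 and 20.8 CPM), with a median of -0.11. V(D)J recombination genes had 9 tested, 0 past 2-fold and a median of 0.03, and 5 tested progenitor genes had 0 past 2-fold and a median of -0.25. Myb, the most abundant of the latter, was at 176 and 142 CPM. Chromatin and HMG genes had 10 tested, 0 past 2-fold and a median of -0.03. Cell cycle genes that the rule left out had 20 tested, 0 higher and 2 lower (Tuba1b and Cdk1), with a median of -0.57. Members are under a cap on cell cycle UMIs and the cycling cells are not, and what part the cap has in that direction was not tested. Against Cd24a-negative cells, under the same cap, the median over 16 tested genes was 0.24. Against Cd24a-positive, low-sum cells, also under it, the median over 16 tested genes was -0.17, with 12 below 0.

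Cd24a-positive cells with more of the defining transcripts had more of several others. Cd24a-positive cells under the cell cycle cap were ordered by their 4-gene sum, from 0 (733 cells) and 1 (513 cells), both outside the rule, to 5 or more (493 cells). Gzma was at 1420 CPM at a sum of 0, 2397 at 1, 3846 at 2, 3861 at 3, 5123 at 4 and 5496 at 5 or more. Crip1, a small LIM-domain protein, went from 2099.5 CPM at 0 to 2906, 3197, 4375, 5297 and 6206.5 in the same order. Igfbp4 went from 186 CPM to 306, 437, 477, 492 and 597. Plac8 went from 606 to 1452 CPM between the ends. Median depth also went up along this order, from 2802 to 4979 UMIs, from the same cells. When the UMIs of each cell were split at random into 2 parts, one ordering the cells and the other giving the levels, Gzma was at 1960, 3568, 5058, 4570 and 5324 CPM at sums of 0, 1, 2, 3 and 4 or more, and Igfbp4 at 251, 385, 480, 573 and 551. From a sum of 2 upward in that split, Gzma did not rise steadily and the intervals of Igfbp4 overlapped. Crip1 went from 5188 CPM at 2 to 6207.5 at 3 and 6536 at 4 or more.

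Other genes took other courses along the sum. Ccl5 was at 312 CPM at a sum of 0, 136 at 1, and 22.5, 24.8, 25.1 and 31.0 within the rule. S1pr1 was at 185, 143 and 117 CPM at sums of 0, 1 and 2, and between 74.5 and 79.4 above. Sox13 was at 106, 159 and 230 CPM, then at 256, 269 and 256. Maf was at 172 CPM at a sum of 2 and 106 at 5 or more, but with the UMIs split in 2 parts it was at 133, 147, 149.5, 118.5 and 77.7 CPM at sums of 0, 1, 2, 3 and 4 or more, and the intervals at 0, 1 and 2 overlapped. Cd24a itself was highest just outside, with 897 CPM at a sum of 1 and 687 at 5 or more.

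**Figure D4:**
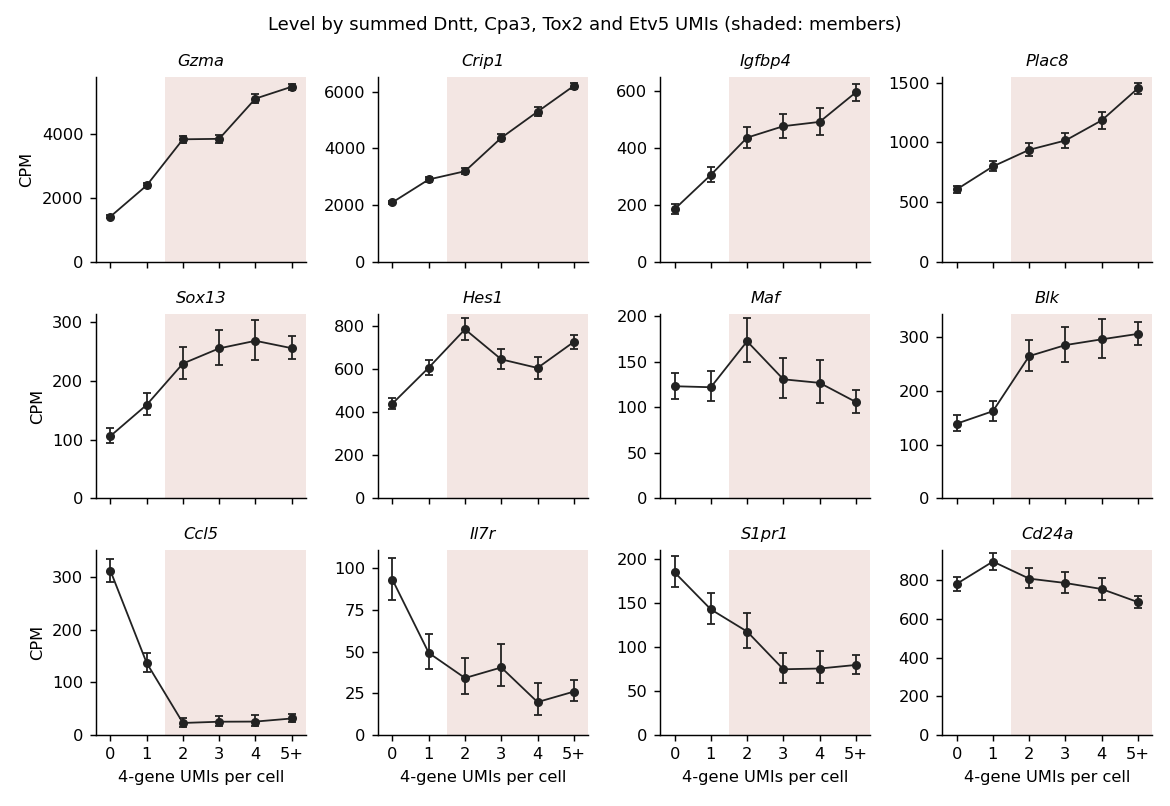
Level of 12 genes (CPM, vertical axes from 0) in Cd24a-positive thymus cells under the cell cycle cap, by the summed Dntt, Cpa3, Tox2 and Etv5 UMIs of a cell. Bars are exact Poisson 95% intervals for counting error and the shaded sums of 2 or more are members. Gzma, Crip1, Igfbp4 and Plac8 are highest at 5 or more, Ccl5 is at most 31.0 CPM throughout the shaded range, and Maf is at 172 CPM at a sum of 2.

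The cut at 1 Cd24a UMI had cells with similar levels of some genes and other levels of Ccl5 and Hes1 on its sides. The 392 cells with a 4-gene sum of at least 2, at most 4 cell cycle UMIs and no Cd24a UMI lay just outside it. They had 4154 CPM of Gzma, 609 of Igfbp4, 236 of Sox13 and 1173 of Ccr9. The 363 members with exactly 1 Cd24a UMI, just inside, had 4674 CPM of Gzma, 543 of Igfbp4 and 1095 of Ccr9. Ccl5 was at 129 CPM outside and 50.7 inside, and Hes1 at 538 and 689.5 CPM. At the cell cycle cap, 40 members with 3 or 4 cell cycle UMIs had 1421 CPM of Stmn1, 29.8 of Maf and 527 of Ccr9. The 24 cells just outside, with 5 or 6, had 1396, 23.3 and 470 CPM. Members with 0 cell cycle UMIs, 1036 in number, had 258 CPM of Stmn1, 149 of Maf and 1120 of Ccr9.

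Of the 211 cycling cells, 128 (60.7%, 53.7 to 67.3%) met the Cd24a and 4-gene conditions. They kept Dntt at 205 CPM but had 96.7 of Cpa3, 144.7 of Etv5 and 110 of Tox2. Their Maf level was 18.5 CPM against 128 in members, Sox4 was at 437 against 858 and Ccr9 at 363 against 1045. Crip1 was at 5862 CPM in them and 5094 in members.

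Levels by Cd24a band differed by gene. Members with 1 Cd24a UMI (363), 2 (288), 3 or 4 (334) and 5 or more (313) had Gzma at 4674, 4971, 5056 and 4493 CPM. Sox4 lay between 856 and 864 CPM in all 4 bands. Stmn1, a microtubule regulator of dividing and immature cells, was at 280, 338, 393 and 544 CPM, and Dntt at 147, 179, 197 and 213. Ccl5 was at 50.7, 18.5, 14.2 and 23.3 CPM, so 77 of its 157 UMIs in members lay in the band with 1 Cd24a UMI.

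Among the members, cells with Maf transcripts differed from the others at several genes. Both the split and the levels were taken after the draw to 1500 UMIs, which gave 241 Maf-positive members (18.6%) and 1056 without. Hes1 was at 1248 CPM in the Maf-positive members and 698 in the others (ratio 1.79, 1.60 to 2.00), and Sox4 at 1308 and 879 (1.49, 1.34 to 1.65). Malat1, a nuclear non-coding RNA, was at 34213 and 26036 CPM (1.31, 1.29 to 1.34). On the other side, Stmn1 was at 194 and 374 CPM (0.518, 0.399 to 0.665), Id3 at 74.7 and 138 (0.543, 0.350 to 0.812), Lgals1 at 412 and 671 (0.614, 0.514 to 0.730) and Plac8 at 764 and 1164 (0.656, 0.576 to 0.745). Median depth before the draw was 3301 UMIs in Maf-positive and 4287 in Maf-negative members. With all UMIs in place of the draw the ratios were 1.52 for Hes1, 1.28 for Sox4, 0.722 for Stmn1 and 0.874 for Plac8. Then 511 members had a Maf UMI, so some of those without Maf after the draw carried it. The 40 members with 3 or 4 cell cycle UMIs had 29.8 CPM of Maf, 199 of Hes1, 421 of Sox4 and 1421 of Stmn1. What part the cell cycle has in the Maf contrast was not tested.

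Members were also split by the genes of the sum, as a description only. Since the rule asks for 2 UMIs of the 4 genes together, a member without one of them has more of the rest, so the ratios of these splits are fixed in part by the rule. Tox2-positive members (273) had more Gzma (ratio 1.26, 1.20 to 1.32), Crip1 (1.20, 1.15 to 1.26), Plac8 (1.25, 1.13 to 1.38) and Lgals1 (1.34, 1.18 to 1.52) than Tox2-negative members, and less Junb (0.760, 0.681 to 0.846). Cpa3-positive members (545) had less Gzma (0.811, 0.778 to 0.846) and Lgals1 (0.650, 0.574 to 0.734) and more Junb (1.33, 1.22 to 1.44) and Maf (1.57, 1.24 to 2.00). The Gzma ratio was 1.13 (1.07 to 1.18) for Dntt and 1.15 (1.10 to 1.196) for Etv5, and the Lgals1 ratio was 1.39 for Dntt and 0.898 for Etv5.

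**Figure D5:**
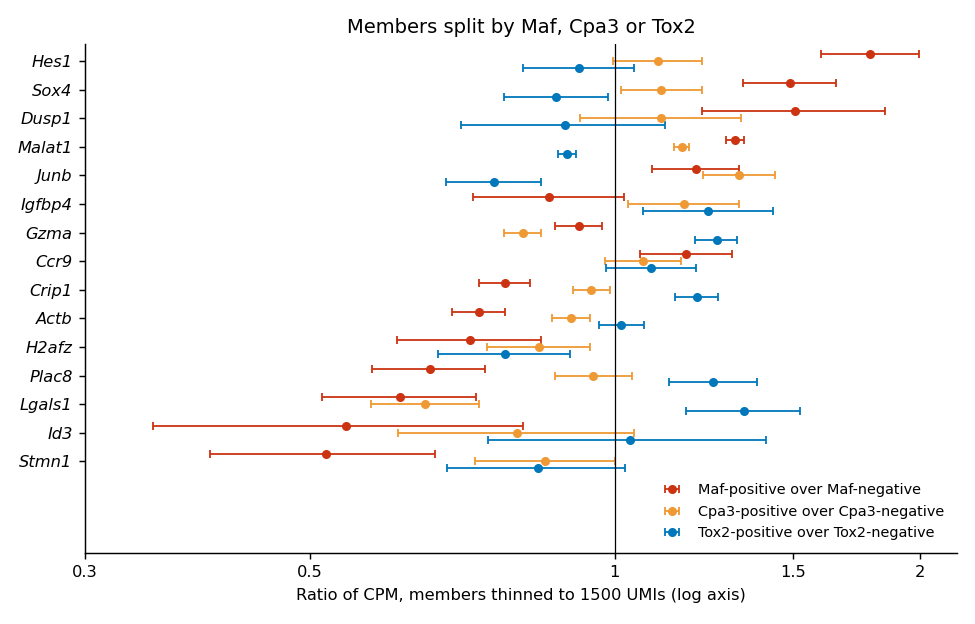
Ratios of CPM for 15 genes between members with and without a UMI of Maf (red), Cpa3 (orange) or Tox2 (blue), all in cells thinned to 1500 UMIs, on a log axis. Bars are exact conditional binomial 95% intervals for counting error. Maf-positive members have ratios of 1.79 for Hes1, 1.49 for Sox4 and 0.518 for Stmn1, and Cpa3 and Tox2 lie on opposite sides of 1 for Gzma, Junb and Lgals1.

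Sox13 and Blk went together among members, and other genes of the higher side went with them. Sox13-positive members (417) had Blk at 376 CPM and the Sox13-negative ones at 259 (ratio 1.45, 1.22 to 1.72). They also had more Tmem121 (1.49, 1.19 to 1.85) and less Ms4a4b (0.547, 0.366 to 0.798). With all UMIs in place of the draw, Blk-positive members had 283 CPM of Sox13, 285 of Endou and 240 of Exoc4. Blk-negative members had 194, 184 and 159 CPM of these genes. Lars2 was at 5.51 CPM in Blk-positive and 175.5 in Blk-negative members. In the latter, 331 of its 347 UMIs lay in the single barcode described above, so this difference rests on 1 cell. Gzma-positive members (1081) had Crip1 at 4910 CPM and the Gzma-negative at 2982 (1.65, 1.54 to 1.76), with Plac8 (1.72, 1.49 to 1.98) and Cd247 (1.64, 1.37 to 1.97) on the same side and Tuba1b (0.481, 0.353 to 0.663) on the other. Myo6, seen in 165 members, had a variance over the mean of 2.43, and Myo6-positive members had more Igfbp4 (1.52, 1.29 to 1.79) and Exoc4 (1.63, 1.27 to 2.08).

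In the liver 3 of 8075 kept cells met the rule (0.0372%, exact binomial 95% interval 0.00766 to 0.109%), and 137 (1.70%) had a Cd24a UMI. The first of the 3, with 5195 UMIs, had 8 UMIs of Cd24a, 3 of Etv5, 2 of Tox2, 1 of Dntt, 12 of Igfbp4, 58 of Gzma and 16 of Ccr9. The second had 1422 UMIs, with 1 of Cd24a and 2 of Dntt, and the third 3385, with 14 of Cd24a, 2 of Cpa3 and 1 of Dntt. Neither of these last cells had more than 1 UMI of Igfbp4 or Gzma.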

How the data were processed

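For each library the authors deposited a matrix of UMI counts, genes by barcodes, not normalized. Per the labels, reads were processed with Cell Ranger against mm10 and cells analysed with Seurat 3.0. Aligner settings and annotation release are not given in the sources used here. The thymus matrix ends with 2 stray lines of letters after its declared entries, which were not read. The files listed 27998 genes, 56 symbols of which are shared between identifiers. Total depth was 17371662 UMIs over 4541 thymus barcodes and 25040963 over 8658 liver barcodes, and 4351 and 8075 were kept. The study's further limit of 50% ribosomal-protein UMIs removed no thymus cell.

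Members, gene lists and the naming rule were chosen with earlier results of these data known. Named genes are the 12 largest log2 ratios of (CPM + 10) in each direction among genes holding 50 UMIs or more in the groups together and at least 50 CPM in the higher group, without mitochondrial, ribosomal-protein and rule genes, plus the rule genes and the genes of the lists. Crip1, Plac8 and Malat1, and the genes used to split members, were picked after their values were seen. Doublets were kept and no doublet caller was run. The draw to 1500 UMIs used seed 11. Calculations used Python 3.11.15 with numpy 2.4.6, scipy 1.17.1, pandas 2.3.3 and matplotlib 3.10.9, and were tested on simulated data. Some items are not reported here. No test was run, since there is 1 library per tissue. Alternatives changed the cell filters, the thresholds of the rule, depth, scaling, the added CPM and the minimum of UMIs.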

Additional observations from a re-analysis of the deposited data

How the results depend on the processing

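The share of kept thymus cells that are members, 29.8%, was 41.6% with a 4-gene sum of at least 1, 22.2% with at least 3, 21.5% with at least 2 Cd24a UMIs, 32.8% with no cell cycle limit, 10.2% with the rule applied after the draw to 1500 UMIs and 15.3% with the rule applied to 1 of 2 random parts of the UMIs. Fewer UMIs per cell meet a fixed minimum less often. The count of 2-fold higher genes, 2, was 1 with a sum of at least 3, with at least 2 Cd24a UMIs, with 50 CPM added, with 1 of these parts for the rule and the other for the levels, and without the Lars2 barcode. It was 0 with the rule after the draw. It was 4 with a sum of at least 1, with at most 2 cell cycle UMIs and with the mean of single-cell CPM, and 3 with at least 500 genes per cell. It was 6 with no cell cycle limit, without the 5% of cells with most UMIs and with levels after the draw, 7 without mitochondrial and ribosomal-protein genes, 23 with 1 CPM added, and 12 with the Cd24a-negative cells of sum 2 or more taken out of the comparison. The last and the Lars2 alternative were chosen after seeing the data. The count of lower genes, 58, was 274 with 1 CPM added and 9 with 50 CPM added, and between 49 and 85 otherwise.

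The log2 ratio of Lars2, 1.93, was -1.50 with a sum of at least 3, -1.41 with at least 2 Cd24a UMIs, -1.20 with the rule after the draw, -1.07 with the UMIs split in 2 parts and -0.24 without its barcode. The ratio of Tuba1b, -1.64, was 0.72 with no cell cycle limit. Over 40 named genes and 20 alternatives, 581 of 800 values stayed within the counting interval of the ratio, 213 lay outside it without changing the sign of a 2-fold difference, and 6 changed one. In all 15 of the 800 had the other sign. At this depth a gene at a few CPM has no UMI in nearly all single cells. No paired analysis was possible because there is 1 library per tissue.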

Other observations

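Among the 12 genes of largest ratio on the higher side, Endou and Rapgef3 are neighbours. Endou lies at chr15:97711015-97731339 and Rapgef3 at chr15:97744770-97767972, both on the minus strand and 13.4 kb apart in the GRCm38 build. The next closest pair among the 12 genes of largest ratio on each side, rule and list genes not counted, Xcl1 and Fcer1g on chromosome 1, was 6294 kb apart. Rapgef3 had 126 CPM in members and 16.4 in Cd24a-negative cells with a 4-gene sum of 0, and Endou had 250.3 and 42.4 CPM. In liver cells Rapgef3 was at 0.0414 CPM and Endou at 0.331.

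Crip1 and Tmem121 lie at chr12:113146316-113153879 and chr12:113185930-113189523, both on the plus strand. Crip1 was at 5094 CPM in members and 2984 in the other cells, and Tmem121 at 179 and 93.8. Crip1 was picked after its value was seen.

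Outside Lars2, the most concentrated transcript was Cd74, an MHC class II chaperone, of which 1 member held 41 of the 66 UMIs left after the draw (62.1%). Actb was the most unevenly spread of the genes with over 1000 drawn UMIs, with a median of 4 UMIs per member after the draw, 18 at the 90th percentile and a variance over the mean of 10.3. Of 4307 genes with at least 50 drawn UMIs in members, 50 had a variance over the mean of at least 1.5.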
